A study of Mus musculus with 6 samples.

Results

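Insulin and IGF signalling in the heart was followed through 10 genes: the ligand *Igf1*, the receptors *Insr* and *Igf1r*, the adaptors *Irs1* and *Irs2*, the PI3K regulatory subunit *Pik3r1*, the kinases *Akt1* and *Akt2*, and the transcription factors *Foxo1* and *Foxo3*. They were chosen by name for their place in the pathway and not by their values, from 54232 gene identifiers in the count tables. Earlier results of these data were known when they were chosen. All 10 had enough counts to be tested. Transcripts of heart ventricle were sequenced in 6 WT mice of the C57BL/6J strain, 3 of them treated with Tributyrin and 3 with vehicle. All 6 mice had been fed western diet (WD) for 15 weeks before the treatment, so both groups share the diet and there is no library from a mouse on normal chow here. Tributyrin, a triglyceride that releases the short-chain fatty acid butyrate, was given by needle feeding, and the labels name the vehicle as PBS. The groups are called WD + Tributyrin and WD + Vehicle, and the question is whether the transcripts of this pathway differed between them.

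Insulin from the blood and IGF1, which is made in the liver and also locally, bind closely related receptor tyrosine kinases. The active receptors phosphorylate the IRS adaptors, which recruit PI3K, and the lipid that PI3K makes brings AKT kinases to the membrane, where they are activated. AKT drives glucose uptake and protein synthesis and keeps FOXO factors out of the nucleus, and in the heart the pathway is known for its part in glucose use and physiological growth and for its blunting in obesity. Most of this control runs through phosphorylation, which a count of transcripts does not measure.

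The 6 libraries held between 20369746 and 32734485 counts on genes, and mitochondrially encoded transcripts took 23.6% to 28.8% of them. Markers of cardiomyocytes summed to between 50929 and 56709 CPM (counts per gene scaled to an equal library total) in every library, against at most 3.42 CPM for adipocyte markers, of which *Ucp1* was at 0. *Xist* had at most 6.24 normalized counts and the Y-linked *Ddx3y* at least 1802, so all 6 libraries carried the pattern of male mice. The summed atrial cardiomyocyte markers were 239, 225 and 94.3 CPM in WD + Vehicle replicates 1 to 3 and 64.4, 107 and 92.4 CPM in WD + Tributyrin, so that WD + Vehicle replicates 1 and 2 stood apart from the other 4 libraries. The summed fibroblast markers were 942, 1070 and 1031 CPM with vehicle and 846, 1030.2 and 870.2 CPM with Tributyrin, and 6 of the 8 fibroblast markers had a lower estimate with Tributyrin. When 14133 genes were tested with edgeR (quasi-likelihood test, p adjusted by Benjamini-Hochberg), 0 genes (0.0%) passed a false discovery rate (FDR) of 10%. An unadjusted p under 0.05 was found for 600 genes (4.25%). Among them were 3 cardiomyocyte markers higher with Tributyrin and 1 lower, so their steady sum hides shifts of single markers. Also among them, lower, were 5 atrial and 2 fibroblast markers. Higher were 1 endothelial, 2 smooth muscle and pericyte and 1 macrophage marker. DESeq2 called 11 of the 13179 genes it gave an adjusted p (0.0835%), and limma-voom called 0, with 605 genes at an unadjusted p under 0.05.

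Several of these genes form pairs of close relatives, so the reads of one could in principle be counted on the other. For each pair the coding sequences were searched for the 50-base stretch in which they differ least, 50 bases being the read length. The stretches for 3 of the pairs are shown in lower case, 5′ to 3′ on the coding strand, with the bases that differ in capitals, since the comparison of *Akt1* with *Akt2* rests on reads being told apart.
Akt1: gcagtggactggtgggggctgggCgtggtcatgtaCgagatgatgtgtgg
Akt2: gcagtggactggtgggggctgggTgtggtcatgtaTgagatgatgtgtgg
Foxo1: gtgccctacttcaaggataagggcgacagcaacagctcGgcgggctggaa
Foxo3: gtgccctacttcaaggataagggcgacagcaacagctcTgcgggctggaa
Insr: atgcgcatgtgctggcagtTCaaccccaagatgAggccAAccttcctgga
Igf1r: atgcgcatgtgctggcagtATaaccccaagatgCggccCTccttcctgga

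The *Akt1* stretch lies in exon 11 at chr12:112656915-112656964 on the minus strand of GRCm38 (GENCODE M21), and its counterpart in exon 11 of *Akt2* is at chr7:27636291-27636340 on the plus strand. They differ at 2 of 50 bases, and 22 of the 1391 stretches of this length in the *Akt1* coding sequence (1.58%) came within 2 mismatches of *Akt2*. The *Foxo1* stretch, in exon 1 at chr3:52269372-52269421 on the plus strand, differs at 1 base from exon 2 of *Foxo3* at chr10:42274817-42274866 on the minus strand, and 9 of 1907 stretches (0.472%) came within 2 mismatches. *Insr* in exon 21 at chr8:3155964-3156013 on the minus strand differs at 5 bases from *Igf1r* in exon 21 at chr7:68226030-68226079 on the plus strand, and the closest stretches of *Irs1* and *Irs2* differ at 6. No stretch was identical within any of the 4 pairs, so a read of the full 50 bases from the coding sequence holds at least 1 base that separates the relatives, which a read shortened by trimming need not. *Akt2* shares 717 of its 7350 transcript stretches of 50 bases (9.755%) with its pseudogene *Akt2-ps*, to which 29 to 57 reads per library were assigned, against at least 3243 for *Akt2*. At most 0.617% of the stretches of each of the other 9 genes were shared with any gene.

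Levels between genes were compared per length, as RPKM, which are the TMM-scaled CPM divided by exon length. *Akt1* was the most abundant of the 10, at 39.9 ± 0.438 RPKM (SD, n = 3) with vehicle and 38.0 ± 0.933 with Tributyrin, and it was above *Akt2* in every library. *Akt2*, *Pik3r1*, *Foxo3* and *Insr* followed, with means over all libraries of 23.7, 22.2, 18.7 and 12.1 RPKM, and each of these overlapped its neighbour in the order over the 6 libraries. *Foxo1* came next at 3.04 RPKM, below *Insr* and above *Irs2* in every library. *Irs2*, *Irs1* and *Igf1r* followed at 1.94, 1.92 and 1.28 RPKM, and *Irs1* overlapped both of the others. *Igf1* was below *Igf1r* in every library and lowest at 0.779 RPKM, a level at the 23.5th percentile of the genes tested, while *Akt1* was at the 94.1st. The hearts thus held far more transcript per length of *Insr* than of *Igf1r*, and *Insr* made up 90.6% ± 0.484 (SD, n = 3) of the summed RPKM of both receptors with vehicle and 90.3% ± 0.288 with Tributyrin.

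None of the 10 genes passed an FDR of 10%, and the adjusted p of each was 0.999 (edgeR's quasi-likelihood test, Benjamini-Hochberg over all genes tested). *Foxo1* alone had an unadjusted p under 0.05, where 4.25% of all genes tested did. The estimates were positive for 3 genes and negative for 7, where 49.6% of all genes tested had positive ones. The median log2 fold change was -0.06 against -0.0013 over all genes tested. The libraries of the groups did not overlap for 3 of the 10, *Akt1* and *Foxo1* with lower normalized counts in WD + Tributyrin and *Akt2* with higher ones, while 8.91% of all genes tested did not overlap. The 95% intervals reached from 0.14 on either side of the estimate for *Akt1* to 0.53 for *Irs2*. The interval of *Irs2* takes in levels with Tributyrin from 0.671-fold to 1.39-fold those with vehicle. In bulk tissue, fewer cells of a type and less RNA per cell cannot be told apart.

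**Figure D1:**
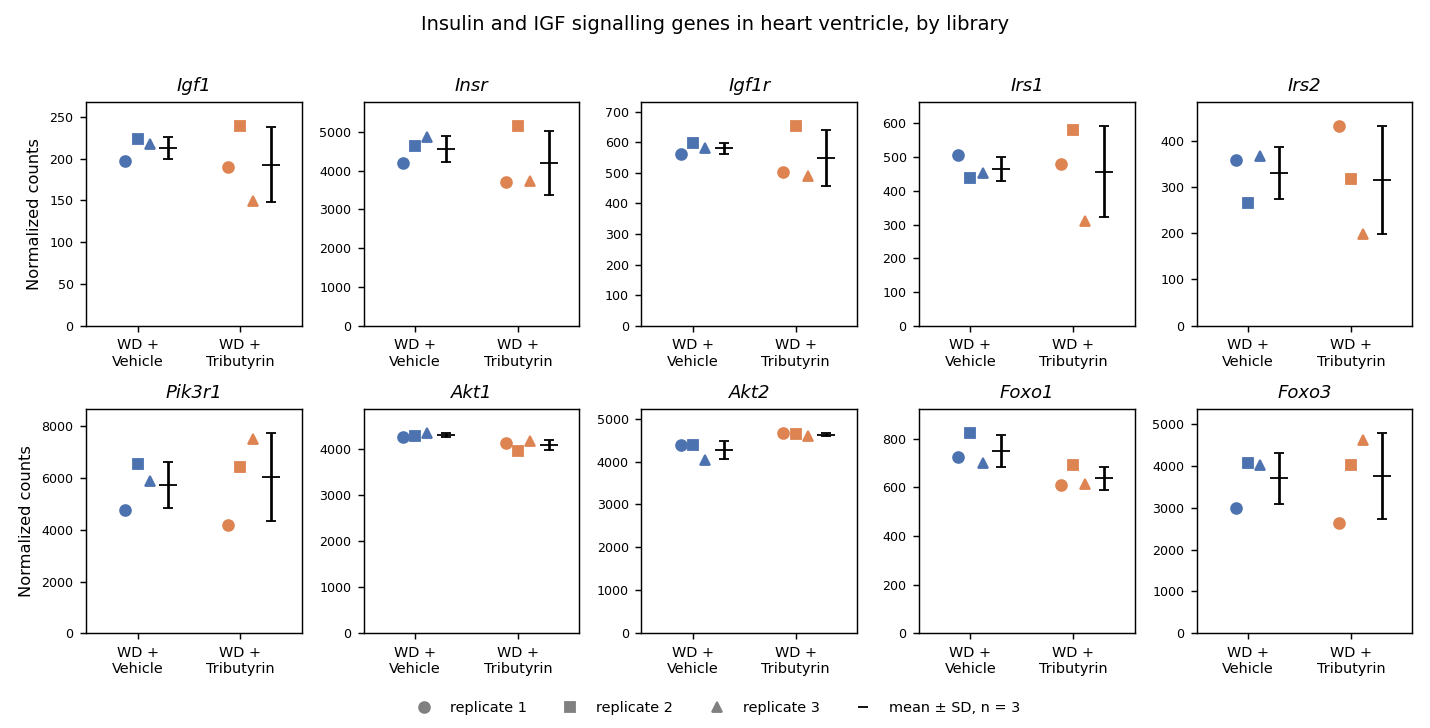
Normalized counts (vertical axes from 0, counts divided by DESeq2's size factors) of the 10 genes in the 3 WD + Vehicle and 3 WD + Tributyrin libraries, with marker shapes for replicates 1 to 3 and black bars for the mean ± SD (n = 3). The groups separate for *Akt1*, *Akt2* and *Foxo1*, and the Tributyrin libraries spread more widely for 8 of the 10 genes.

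**Figure D2:**
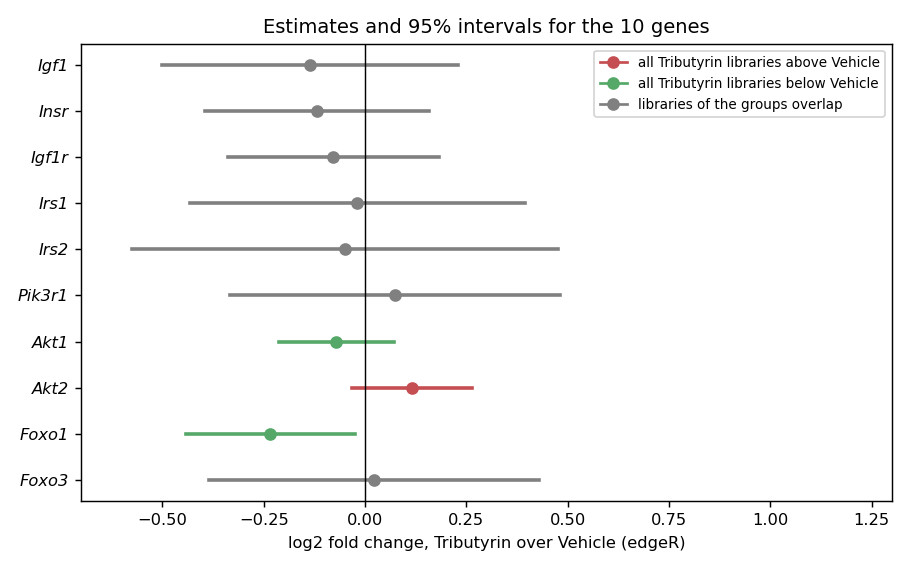
Log2 fold change of WD + Tributyrin over WD + Vehicle from edgeR for each gene (point) with its 95% interval (line), coloured by whether the libraries of the groups overlap. The interval of *Foxo1*, from -0.44 to -0.03, is the only one of the 10 that leaves out 0.

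*Igf1* (ENSMUSG00000020053, chromosome 10, 87858265 to 87937042, plus strand), the secreted growth factor, had 197, 223 and 217 normalized counts in WD + Vehicle replicates 1 to 3 and 189.8, 239 and 149 in WD + Tributyrin. The Tributyrin libraries lay on both sides of the vehicle libraries, with replicate 3 the lowest and replicate 2 the highest of all 6. The log2 fold change was -0.14 (SE 0.164, 95% interval -0.50 to 0.23). *Igf1* was counted from 130 to 288 reads per library, which alone gives an SD of up to 8.77% from counting, the largest among the 10 genes.

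*Insr* (ENSMUSG00000005534, chromosome 8, 3122061 to 3279617, minus strand), the insulin receptor, had 4201, 4645 and 4856 normalized counts with vehicle and 3709.5, 5162 and 3729 with Tributyrin. Tributyrin replicates 1 and 3 were below all vehicle libraries and replicate 2 was above them. *Igf1r* (ENSMUSG00000005533, chromosome 7, 67952827 to 68233668, plus strand), the receptor for IGF1, had 561, 599 and 580.2 normalized counts with vehicle and 502, 654 and 489 with Tributyrin, the same arrangement. The log2 fold changes were -0.12 (SE 0.125, 95% interval -0.40 to 0.16) for *Insr* and -0.08 (SE 0.117, -0.34 to 0.18) for *Igf1r*.

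The estimates of these 3 genes moved with each WD + Tributyrin library left out. Without replicate 3 they were 0.018 for *Igf1*, -0.04 for *Insr* and 0.00078 for *Igf1r*, and without replicate 1 they were -0.12, -0.03 and -0.01. Without replicate 2 the log2 fold change of *Insr* was -0.30, with an unadjusted p of 0.0036 and an adjusted p of 0.388 by edgeR's quasi-likelihood test, that of *Igf1r* was -0.23 and that of *Igf1* was -0.32. All 3 were then below every vehicle library, and 6 of the 10 genes had groups that did not overlap, but so did 27.3% of all genes tested and the genes at an unadjusted p under 0.05 went from 600 to 1360 (9.56%). Tributyrin replicate 2 had 1030.2 CPM of fibroblast markers, against 846 and 870.2 CPM in the other WD + Tributyrin libraries. Its summed cardiomyocyte, smooth muscle and pericyte, macrophage, Schwann cell, atrial and adipocyte markers were also the highest of the WD + Tributyrin libraries. Its erythroid markers were the lowest, at 383 CPM, and its endothelial markers lay between the others. The part of these in the result was not tested.

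*Irs1* (ENSMUSG00000055980, chromosome 1, 82233101 to 82291416, minus strand), the adaptor that carries much of the insulin signal in muscle, had 506, 438 and 453 normalized counts with vehicle and 481, 580.2 and 311 with Tributyrin. *Irs2* (ENSMUSG00000038894, chromosome 8, 10984681 to 11008458, minus strand), its relative and a gene that FOXO factors switch on in fasting liver, had 359, 265 and 366 with vehicle and 431, 318 and 197 with Tributyrin. For both, the Tributyrin libraries reached above and below the vehicle libraries, and replicate 3 was the lowest of all 6. The log2 fold changes were -0.02 (SE 0.186, 95% interval -0.43 to 0.39) for *Irs1* and -0.05 (SE 0.237, -0.58 to 0.48) for *Irs2*. Leaving out WD + Tributyrin replicate 3 gave 0.19 and 0.20, while *Irs1* was -0.23 without Tributyrin replicate 2 and *Irs2* was -0.33 without Tributyrin replicate 1. Per length the adaptors were near parity: *Irs2* made up 50.4% ± 3.61 (SD, n = 3) of their summed RPKM with vehicle and 49.5% ± 6.29 with Tributyrin.

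*Pik3r1* (ENSMUSG00000041417, chromosome 13, 101680563 to 101768217, minus strand), which encodes the p85α regulatory subunits that hold PI3K on the adaptors, had 4775, 6545 and 5904 normalized counts with vehicle and 4193, 6425 and 7511 with Tributyrin. Tributyrin replicate 1 was the lowest and replicate 3 the highest of the 6 libraries. The log2 fold change was 0.07 (SE 0.184, 95% interval -0.33 to 0.48), and it ran from -0.11 without Tributyrin replicate 3 to 0.29 without Tributyrin replicate 1. Counting error was at most 1.49% for this gene, so nearly all of the spread, with a coefficient of variation of 28% in WD + Tributyrin, lay between libraries.

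*Akt1* (ENSMUSG00000001729, chromosome 12, 112653821 to 112674884, minus strand), the kinase tied most to growth and survival, had 4271, 4275 and 4346 normalized counts with vehicle and 4127, 3964 and 4177 with Tributyrin. All Tributyrin libraries were below all vehicle libraries, by a narrow margin. *Akt2* (ENSMUSG00000004056, chromosome 7, 27591552 to 27640826, plus strand), the kinase tied most to insulin-stimulated glucose uptake, had 4394, 4383 and 4029 with vehicle and 4655, 4633 and 4585 with Tributyrin. Here all Tributyrin libraries were above all vehicle libraries, and they lay within 0.774% (coefficient of variation) of each other.

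The log2 fold change was -0.07 for *Akt1* (SE 0.064, 95% interval -0.21 to 0.07, unadjusted p 0.291 by edgeR's quasi-likelihood test) and 0.12 for *Akt2* (SE 0.067, 95% interval -0.03 to 0.27, unadjusted p 0.112). Neither passed the test. By the two-sided exact permutation test on the normalized counts both gave p = 0.1, the smallest value that 3 mice against 3 can give. The summed endothelial markers also separated the groups in TMM-scaled CPM, by a narrow margin. They were 963, 978 and 949.5 CPM with vehicle and 985, 1015 and 1083 CPM with Tributyrin, with 5 of 8 higher. Smooth muscle and pericyte markers summed to 1169, 1194 and 1167 CPM with vehicle and 1173, 1338 and 1253 CPM with Tributyrin, with 7 of 8 higher. The part of both in the *Akt1* and *Akt2* results was not tested. With scaling by library size alone *Akt2* no longer separated the groups and its log2 fold change was smaller, while *Akt1* and *Foxo1* still did.

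The balance between both kinases does not depend on the scaling, since it is a ratio of counts within a library. The ratio of *Akt2* to *Akt1* counts was 1.03, 1.03 and 0.927 with vehicle and 1.128, 1.169 and 1.098 with Tributyrin, so every Tributyrin library was above every vehicle library. This separation, and with it the p of the permutation test, followed from those of *Akt1* and *Akt2* in normalized counts and is no further result. The difference was 0.19 on the log2 scale (SE 0.056), or 1.14-fold, with an exact permutation p of 0.1 and a Benjamini-Hochberg adjusted p of 0.4 over the 4 ratios computed. With each replicate left out the difference lay between 0.14 and 0.21. Its sign could not turn there, since the groups do not overlap.

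**Figure D3:**
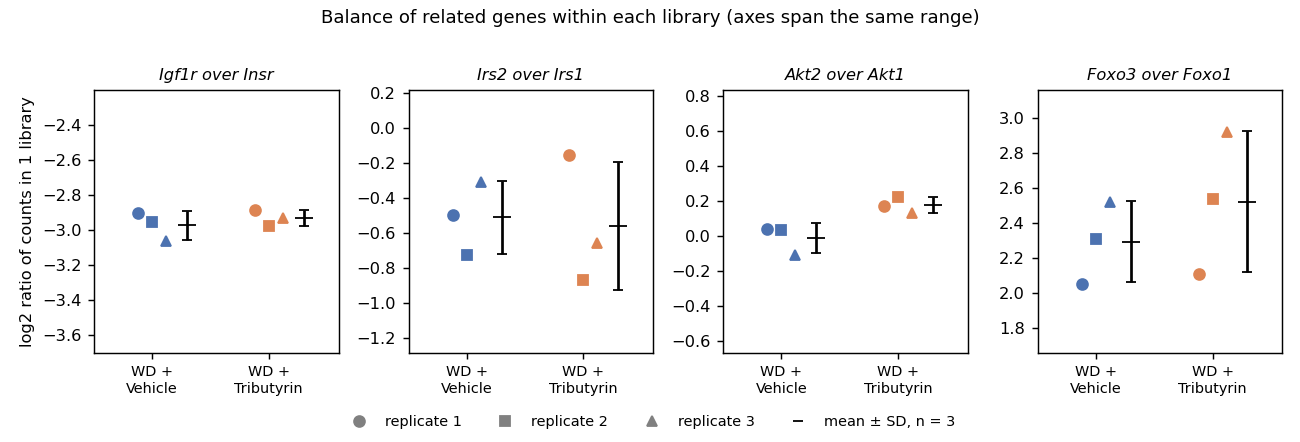
Log2 ratio of the counts of 2 related genes within each library, by group, with marker shapes for replicates 1 to 3 and black bars for the mean ± SD (n = 3), on axes of equal span. The 3 Tributyrin libraries are above the 3 vehicle libraries for *Akt2* over *Akt1*, and the groups overlap for the other 3 ratios.

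*Foxo1* (ENSMUSG00000044167, chromosome 3, 52268336 to 52353221, plus strand), a transcription factor that AKT inactivates and that drives fasting and atrophy genes, had 723, 822 and 701 normalized counts with vehicle and 608, 692 and 611 with Tributyrin. Every Tributyrin library was below every vehicle library, though Tributyrin replicate 2 came close to vehicle replicate 3. The means were 749 ± 64.4 and 637 ± 47.4 normalized counts (SD, n = 3). The log2 fold change was -0.23 (SE 0.094, 95% interval -0.44 to -0.03). The unadjusted p was 0.0315 and the adjusted p 0.999 by edgeR's quasi-likelihood test. *Foxo1* ranked 368 of the 14133 genes by p.

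With each replicate left out the estimate for *Foxo1* ran from -0.30 to -0.16. Its sign could hardly turn there, since the groups do not overlap. By edgeR's quasi-likelihood test its unadjusted p was over 0.05 without vehicle replicate 2 (0.152), Tributyrin replicate 1 (0.0979) or Tributyrin replicate 3 (0.0799). Over all alternatives tried its adjusted p ran from 0.404 to 0.9999. Vehicle replicates 1 and 2, the libraries with high atrial markers, had the higher *Foxo1* counts. Vehicle replicate 3, with 94.3 CPM of atrial markers, had 701 normalized counts of *Foxo1* against 692 in the highest Tributyrin library, a gap within the counting SD of up to 4.33%. Against this library alone the log2 fold change was -0.14 (SE 0.149, unadjusted p 0.372 by edgeR with the lone library assumed to vary like the other group). The fibroblast markers were also lowest in Tributyrin replicates 1 and 3, where *Foxo1* was lowest, and the part of the atrial and fibroblast markers in the result was not tested.

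*Foxo3* (ENSMUSG00000048756, chromosome 10, 42181841 to 42276755, minus strand), the more abundant relative of *Foxo1*, had 3002, 4077 and 4014 normalized counts with vehicle and 2626, 4013.9 and 4625 with Tributyrin. The Tributyrin libraries reached both below and above the vehicle libraries. The log2 fold change was 0.02 (SE 0.183, 95% interval -0.39 to 0.43), and its sign was negative in 7 of 15 alternatives, among them scaling by library size alone. *Foxo1* made up 6.89% ± 0.572 (SD, n = 3) of the summed RPKM of the 4 FOXO genes with vehicle and 5.93% ± 0.409 with Tributyrin, *Foxo3* 38.8% ± 5.05 and 39.5% ± 8.30, *Foxo4* 49.4% ± 4.16 and 50.1% ± 6.12, and *Foxo6* 4.86% ± 0.978 and 4.41% ± 1.82. Per length, *Foxo3* and *Foxo4* made up most of the FOXO transcripts in these hearts.

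The other 3 ratios within families overlapped between the groups. *Foxo3* over *Foxo1* was 4.15, 4.96 and 5.73 with vehicle and 4.32, 5.80 and 7.56 with Tributyrin, a log2 difference of 0.23 (SE 0.269, exact permutation p = 0.4). The differences were 0.04 (SE 0.055, exact permutation p = 0.6) for *Igf1r* over *Insr* and -0.05 (SE 0.243, exact permutation p = 0.9) for *Irs2* over *Irs1*. *Igf1r* over *Insr* was the steadiest of these ratios, between 0.119 and 0.135 in all 6 libraries.

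Over the 6 libraries some of the 10 genes varied together. Their correlations are given as a description, since the libraries share their diet, their scaling and, 3 by 3, their treatment, and the values were not centred by group. *Pik3r1* and *Foxo3* followed each other closely (Pearson's r of log2 CPM 0.986, Spearman's rho 1.0, and r 0.915 over the 4 libraries left without the 2 farthest from the median of *Pik3r1*). Their deviations from their means on the log2 scale were -0.28 and -0.29 in vehicle replicate 1 and -0.46 and -0.48 in Tributyrin replicate 1, and both were highest in Tributyrin replicate 3. *Irs2* ran the other way, with r -0.874 to *Pik3r1* and -0.804 to *Foxo3*. The deviation of *Irs2* was 0.46 in Tributyrin replicate 1 and -0.67 in Tributyrin replicate 3.

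**Figure D4:**
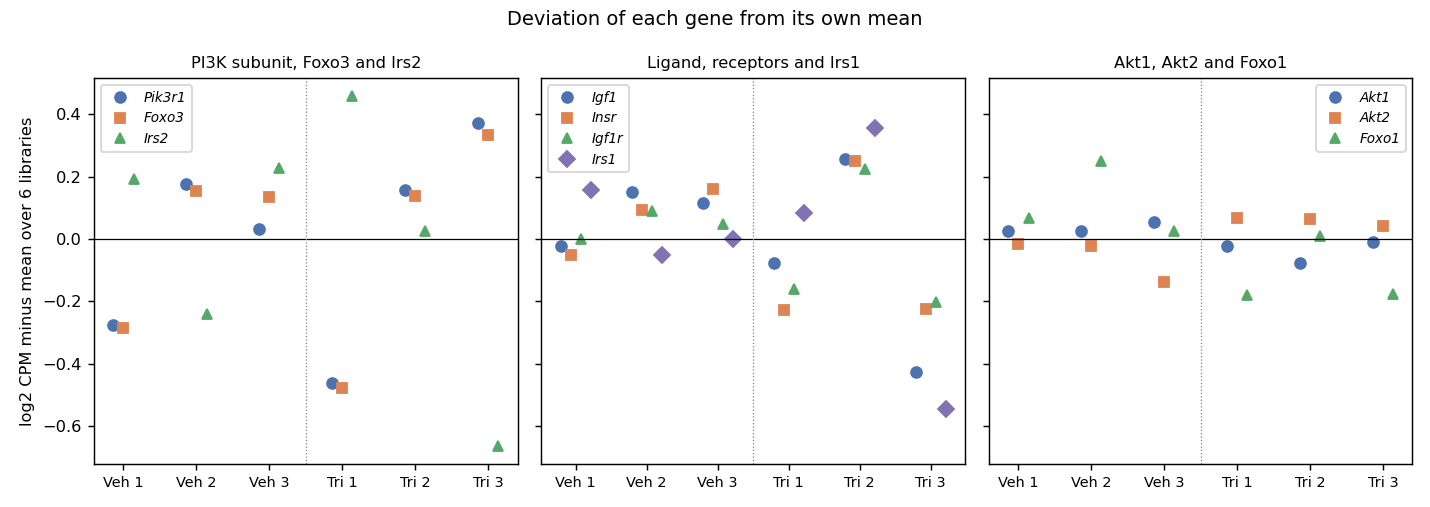
Log2 CPM of each gene minus its mean over the 6 libraries (vertical axis), for the 3 WD + Vehicle (Veh) and 3 WD + Tributyrin (Tri) libraries, in 3 panels. *Pik3r1* and *Foxo3* lie together and *Irs2* opposite them, the ligand and receptors are all highest in Tri 2, and *Akt1* and *Akt2* stay closest to 0.

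The ligand and the receptors formed another such set. *Insr* and *Igf1r* had r 0.962, *Igf1* and *Igf1r* 0.914, and *Igf1* and *Insr* 0.874, and all 3 genes were highest in Tributyrin replicate 2. *Akt1* and *Akt2* ran opposite to each other, with r -0.847, which takes in the difference between the groups, in which they separate in opposite directions. Over all 45 pairs of the 10 genes 25 correlations were positive and the median r was 0.05, so the genes did not vary as 1 block. The coefficient of variation was larger with Tributyrin than with vehicle for 8 of the 10 genes, and for 61.6% of all genes tested. *Akt2* and *Foxo1* were the exceptions.

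The genes whose log2 CPM were most like those of *Foxo1* over the 6 libraries were *Gli3* (r 0.997), *Mfhas1* (0.996), *Tmem140* (0.994), *Lamc3* (0.992) and *Plpp1* (0.989), the 5 highest of all genes tested. *Gli3* encodes a transcription factor of hedgehog signalling, *Lamc3* a laminin chain and *Plpp1* a lipid phosphatase. None passed an FDR of 10%, and their log2 fold changes lay between -0.77 for *Lamc3* and -0.09 for *Mfhas1*. They were picked for following *Foxo1*, so the shared negative sign comes from the choice. *Lamc3* had only 9.18 to 25.6 normalized counts per library.

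Around the 10 genes, 79 others of the pathway were listed by role, and 73 had enough counts to be tested. None of the 73 passed an FDR of 10% by edgeR's quasi-likelihood test. An unadjusted p under 0.05 was found for 0 in the higher direction, where 1.97% of all genes tested had one, and for 2 in the lower, *Igfbp7* and *Tbc1d1*, where 2.28% did. DESeq2 and limma-voom called 0 at an FDR of 10% too, and at an unadjusted p under 0.05 they found 0 higher, with 2 and 3 lower. The estimates were positive for 29 and negative for 44, where 49.6% of all genes tested had positive ones, and the median log2 fold change was -0.02. Groups that did not overlap were found for 1 gene with higher counts, *Gsk3a*, and 3 with lower counts, *Enpp1*, *Pid1* and *Tbc1d1*, where 4.26% and 4.65% of all genes tested had them. *Gsk3a* and *Pid1* are named for this count, after their values were seen.

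Among ligands and receptors, the insulin genes *Ins1* and *Ins2*, which are made in the pancreas, were at 0 counts in all 6 libraries. *Igf2*, the other growth factor, had 24 to 58 reads per library and a log2 fold change of 0.40 (SE 0.321). *Igf2r*, which carries IGF2 to lysosomes, was abundant at 23.2 RPKM with a log2 fold change of 0.06 (SE 0.126).

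Of the 10 genes tested among IGF binding proteins and their partners, 9 had negative estimates and the median log2 fold change was -0.18. Over all genes tested 49.6% of the estimates were positive. The 9 negative estimates ran from -1.06 to -0.02. *Igfbp7*, at 82.2 RPKM the most abundant of them, is a secreted protein of vessels and stroma that binds IGF weakly. It had 2617, 3102 and 2856 normalized counts with vehicle and 1922, 2619 and 2553 with Tributyrin, and Tributyrin replicate 2 just passed vehicle replicate 1, so the groups overlapped. Its log2 fold change was -0.27 (SE 0.117, unadjusted p 0.0401, adjusted p 0.999 by edgeR's quasi-likelihood test). *Igfbp7* overlaps *Polr2b* on the other strand, which had up to 2019 reads in a library, and the strand setting of the counting is not given in the sources used here. *Igfbp5*, at 26.7 RPKM, had a log2 fold change of -0.06 (SE 0.114), and *Pappa2*, a protease that frees IGF from its binding proteins, had 3 to 33 reads per library and -1.06 (SE 0.551). Estimates were also lower for 6 of 8 fibroblast and 6 of 7 atrial markers tested. They were higher for 5 of 8 endothelial and 7 of 8 smooth muscle and pericyte markers. The part of these markers in the result for this list was not tested.

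Of the 11 adaptors tested, 6 had positive and 5 negative estimates, with a median log2 fold change of 0.02. *Grb2*, which links receptors to RAS, and *Grb14*, which binds and restrains the insulin receptor, were the most abundant at 33.0 and 32.6 RPKM, with log2 fold changes of 0.06 (SE 0.074) and 0.08 (SE 0.093). The largest estimates, 0.26 for *Irs3* and 0.17 for *Sh2b2*, came from 4 to 16 reads per library. The 8 genes of PI3K, PDK1 and mTORC2 stayed closest to 0, from -0.08 for *Pik3c2a* to 0.09 for *Rictor*. *Mapkap1*, a subunit of mTORC2, and *Pik3r2*, another regulatory subunit of PI3K, were the most abundant of these at 12.2 and 7.70 RPKM.

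Among 16 inhibitors of the pathway, 6 had positive and 10 negative estimates, with a median log2 fold change of -0.05. *Socs3*, a feedback inhibitor induced by cytokines, had 84.2, 94.6 and 72.1 normalized counts with vehicle and 69.2, 195 and 91.8 with Tributyrin. Its log2 fold change of 0.50 (SE 0.332) thus came with 1 high library, Tributyrin replicate 2. *Enpp1*, a membrane enzyme that binds and inhibits the insulin receptor, had 161, 191 and 170.2 with vehicle and 139, 159 and 128 with Tributyrin. All Tributyrin libraries were lower, and the log2 fold change was -0.29 (SE 0.137, unadjusted p 0.06 by edgeR's quasi-likelihood test). *Inppl1*, the lipid phosphatase SHIP2, and *Ppp2r5b*, a subunit of the phosphatase PP2A, were the most abundant at 36.0 and 12.5 RPKM, with log2 fold changes of 0.03 and -0.05.

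Of the 12 AKT substrates and genes of glucose uptake, 4 had positive and 8 negative estimates, with a median log2 fold change of -0.02. *Tbc1d1*, a Rab GTPase-activating protein that AKT and AMPK phosphorylate to release glucose transporters, had 469, 488 and 429 normalized counts with vehicle and 354, 421 and 366 with Tributyrin. The groups did not overlap. Its log2 fold change was -0.28 (SE 0.104, unadjusted p 0.0225, adjusted p 0.999 by edgeR's quasi-likelihood test). *Slc2a4*, the insulin-regulated transporter GLUT4, was the most abundant gene of the list at 146 RPKM, followed by *Akt1s1* at 22.5 RPKM. *Slc2a4* had 13083, 13176 and 13057 normalized counts with vehicle and 14155, 12197 and 14420.4 with Tributyrin, which overlapped (log2 fold change 0.05, SE 0.077). *Foxk1*, a nuclear factor downstream of insulin, had a log2 fold change of -0.14 (SE 0.092).

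The 14 other FOXO factors and FOXO target genes were split evenly, with 7 positive and 7 negative estimates and a median log2 fold change of -0.0055. *Pdk4*, the kinase that shuts pyruvate dehydrogenase when fat is burned, was the most abundant at 138 RPKM. It had 11664, 13932 and 10499 normalized counts with vehicle and 9350.0, 17401 and 13778 with Tributyrin, a log2 fold change of 0.17 (SE 0.187), and the Tributyrin libraries reached beyond the vehicle libraries on both sides. *Trim63*, the muscle ubiquitin ligase MuRF1, at 72.5 RPKM, had a log2 fold change of -0.10 (SE 0.101), and *Foxo6* had -0.17 (SE 0.223).

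**Figure D5:**
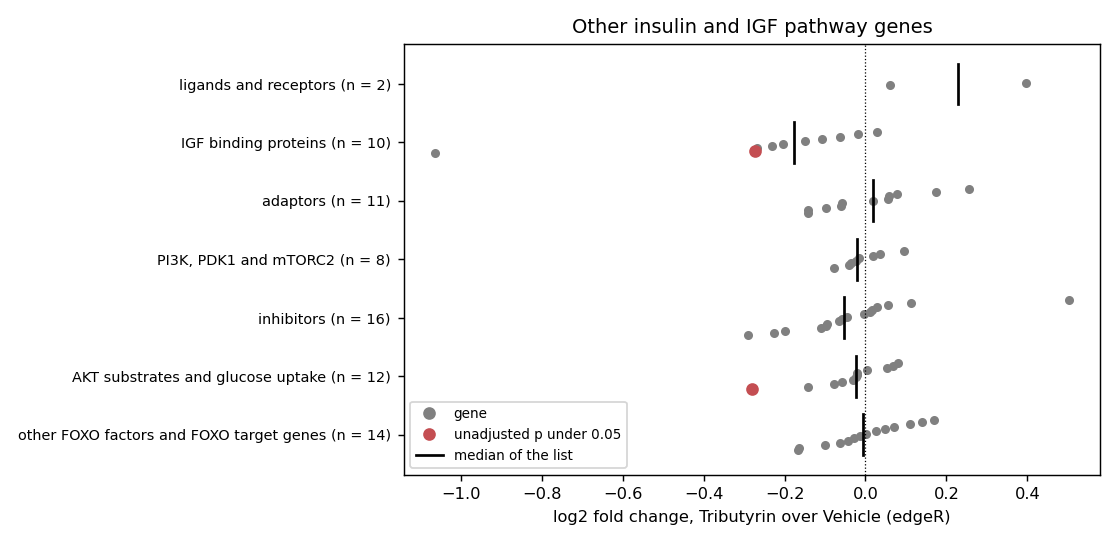
Log2 fold change of WD + Tributyrin over WD + Vehicle (edgeR) for the 73 other pathway genes tested, by role, with 1 point a gene, red points for an unadjusted p under 0.05 and black lines for the median of each list. Most lists centre near 0. Of the 10 IGF binding proteins and partners 9 lie below it, from -1.06 to -0.02, where 49.6% of all genes tested lie above 0.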

How the data were processed

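Stranded mRNA libraries from heart ventricle were sequenced with single-end reads. The authors trimmed them with cutadapt 1.13, aligned them with STAR to mm10 and counted reads per gene with HTSeq 0.6.1p1, as far as the paper and the submitters' processing notes say, and deposited whole-number counts for each library without normalization. For the annotation and strand setting nothing is given in the sources used here, and the authors' DESeq2 1.14.1 results were not used. Gene names and positions came from GENCODE M21 (GRCm38), in which 54165 of 54232 identifiers matched. There were 0 lines naming no gene.

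Groups came from the sample labels. Each library was taken as 1 mouse, which the labels number but do not describe, so p-values measure the spread between these samples. No pair of libraries was as alike as sampling noise would make it (chi-square per degree of freedom from 6.674 to 28.222, over genes with 20 or more counts in all). Counts were tested with edgeR 4.0.16 in R 4.3.3 (quasi-likelihood test, TMM scaling, default filter with a minimum count of 10 and minimum total of 15, 14133 genes left, Benjamini-Hochberg adjustment, FDR of 10%). The SE is the log2 fold change divided by the square root of the F statistic, and 95% intervals use 10.31 degrees of freedom. For normalized counts, each library was divided by its DESeq2 size factor. Single values were compared with two-sided exact permutation tests (scipy 1.17.1), which with 3 against 3 cannot go below 0.1. Deeper libraries have less counting error, and intervals cover the spread between libraries.

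The genes named are the 10 of the pathway chosen at the start, and of 79 other pathway genes those with an unadjusted p under 0.05 and, in each list, the 2 with the largest log2 fold change and the 2 most abundant per length, plus the 5 genes most like *Foxo1*, which had the smallest p of the 10. The genes and lists were chosen with earlier results of these data known. The alternatives were no filter, a mean CPM of at least 5, scaling by library size alone or by size factors of the DESeq2 type, mitochondrial genes left out, DESeq2 1.42.0, limma-voom (limma 3.58.1), the replicate number as a block and each replicate left out. Leaving out vehicle replicates 1 and 2, TMM scaling for the count of genes whose groups do not overlap, and each replicate left out for that count were added after seeing the data. The steps were tested on simulated data. Values of some items are not reported here. Markers of macrophages, erythroid cells and Schwann cells summed to 212 to 249, 491 to 697 and 24.4 to 25.4 CPM with vehicle and 213 to 257, 383 to 943 and 24.8 to 26.9 CPM with Tributyrin.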

Additional observations from a re-analysis of the deposited data

How the results depend on the processing

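The 10 genes of the pathway stayed short of an FDR of 10% in all 150 combinations of gene and alternative, with a smallest adjusted p of 0.388 by edgeR for *Insr* without Tributyrin replicate 2, and 18 of the 150 turned the sign of the estimate. *Foxo1*, *Akt1*, *Akt2* and *Insr* turned in none, though leaving out a library could hardly turn the first 3, whose groups do not overlap. With scaling by library size alone the log2 fold change was -0.0053 for *Pik3r1* and -0.057 for *Foxo3*, and the median of the other pathway genes was -0.096. *Foxo3* was -0.0050 with limma-voom. Without vehicle replicates 1 and 2, chosen after seeing the data, it was -0.10 and *Irs1* was 0.01. Over all genes, an FDR of 10% was passed by 6 higher and 5 lower with DESeq2. Without the filter on low counts it was passed by 64 higher and 103 lower. In that fit edgeR used only the dispersion trend over all genes (prior degrees of freedom infinite, against 6.31 in the main fit). A gene's own spread then no longer entered its test, and the SE of *Pik3r1* was 0.086 against 0.184 in the main fit. An unadjusted p under 0.05 was found for 1178 genes without the filter, where more genes were tested. In all, 25581 genes had a count, against 14133 tested in the main fit. Such a p was found for 367 genes with a mean CPM of at least 5 (fewer genes were tested) and 396 without vehicle replicates 1 and 2. The cause of these shifts, the 64 and 103 calls without the filter among them, was not tested.

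With the replicate number as a block, 1 gene passed an FDR of 10% in each direction and *Foxo3* was -0.0023. Of the 73 other pathway genes, 4 had an unadjusted p under 0.05 by edgeR in the lower direction and 0 in the higher. Over all 14133 genes tested, 731 had one in either direction. The labels give no pairing. Same-numbered libraries correlated in their deviations from the group means by 0.214, 0.037 and 0.015, and 4 of 6 libraries correlated best with their own number, so the numbers were not taken as pairs.

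With each replicate left out, genes past an FDR of 10% ran from 0 to 2 in each direction. Genes at an unadjusted p under 0.05 ran from 389 (vehicle replicate 3 left out) to 1360 (Tributyrin replicate 2 left out). Genes of the 10 whose groups do not overlap ran from 3 to 6, a count that leaving out a library cannot lower. The log2 fold change ran from -0.32 to 0.018 for *Igf1*, -0.30 to -0.03 for *Insr*, -0.23 to 0.00078 for *Igf1r*, -0.23 to 0.19 for *Irs1*, -0.33 to 0.20 for *Irs2*, -0.11 to 0.29 for *Pik3r1*, -0.08 to -0.05 for *Akt1*, 0.08 to 0.14 for *Akt2*, -0.30 to -0.16 for *Foxo1* and -0.15 to 0.23 for *Foxo3*. The log2 ratios differed by -0.0024 to 0.078 for *Igf1r* over *Insr*, -0.25 to 0.10 for *Irs2* over *Irs1*, 0.14 to 0.21 for *Akt2* over *Akt1* and 0.03 to 0.43 for *Foxo3* over *Foxo1*. Without vehicle replicates 1 and 2 *Akt2* over *Akt1* was 0.29. The median of the other pathway genes ran from -0.055 to 0.0086, and the number of them at an unadjusted p under 0.05 from 0 to 2 higher and 0 to 8 lower. The 8 were found without Tributyrin replicate 2, where 9.56% of all genes tested had such a p by edgeR in either direction. Among the 10 genes the SE was largest for *Irs2*, and the counting SD for *Igf1* at 130 to 288 reads per library.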
